A study of Rattus norvegicus with 210 samples.

Results

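The mediobasal hypothalamus (MBH) of female rats exposed perinatally to ketoconazole (KTZ) was compared between postnatal day (PND) 22, the last day of exposure, and PND90, long after it. The members were the 15 KTZ libraries of the MBH at PND90 and the 15 at PND22, chosen by tissue, chemical and age from the library labels, 30 of the 210 libraries of the series. All came from Sprague-Dawley females whose dams were gavaged daily with KTZ in corn oil at 3 (K3), 6 (K6) or 12 (K12) mg/kg bw/day from gestation day 7 until birth and again after birth until PND22. Each dose had 5 rats at each age. The 10 vehicle libraries of the MBH, 5 at PND22 and 5 at PND90 from rats whose dams received corn oil alone, gave the same age comparison without KTZ. Different rats were sampled at each age. The paper names the diestrus stage for its study of GnRH release at PND90, and the labels of the sequenced rats give no cycle stage. Age, time since the end of exposure and the state of the cycle therefore cannot be told apart. The labels give no litter, extraction date or sequencing run, so the p-values measure the spread between these rats alone.

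The MBH holds the arcuate nucleus, whose neurons make kisspeptin, neurokinin B and dynorphin and set the rhythm of gonadotropin-releasing hormone (GnRH) release, and it also holds the neurons that control feeding, growth hormone and thyroid output. Between weaning and adulthood the rodent hypothalamus passes through puberty, its glial precursors divide less often, and oligodendrocytes wrap axons in myelin. Myelin is a membrane rich in cholesterol and galactolipids that the brain must make itself. KTZ is an imidazole antifungal that blocks cytochrome P450 enzymes, among them the lanosterol demethylase of fungal sterol synthesis and the enzymes of steroid hormone synthesis.

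Between 17238992 and 24844687 reads fell on genes in each library among the KTZ rats at PND22 (median 19731315) and between 16009208 and 22999078 at PND90 (median 17050830). Mitochondrial genes took from 5.34% to 14.21% of the reads, with the highest shares in K3 PND22 replicates 4 (12.94%) and 5 (10.99%) and K6 PND90 replicate 4 (14.21%), and the counts that lead the comparison were repeated without these 3 libraries. In a principal component analysis of the 500 most variable genes, the first component held 38.4% of the variance and ran from -1.21 to 16.8 at PND22 and from -15.9 to -0.33 at PND90, so the ages overlapped there only in K12 PND22 replicate 5, K12 PND90 replicate 5 and K3 PND90 replicate 4. K3 PND22 replicates 4 and 5 stood apart on the second component, which held 18.8%.

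The labelled tissue was checked against lists of regional marker genes, each summarised per library as the mean of log2(CPM + 0.5), where CPM is a gene's count scaled to the reads counted on genes in its library. The list of the arcuate and ventromedial nuclei lay between 1.73 and 2.53 (median 2.40) in the KTZ libraries at PND22 and between 2.53 and 3.35 (median 3.13) at PND90. In vehicle this list lay between 2.96 and 3.59 at PND22 and between 2.64 and 3.08 at PND90, above every KTZ library of PND22. The list of the thalamus, the structure that borders the hypothalamus dorsally, lay between 3.33 and 5.81 (median 4.78) at PND22 and between 2.02 and 5.08 (median 3.21) at PND90. In vehicle, the thalamus list lay between 2.14 and 2.43 at PND22 and between 2.20 and 3.28 at PND90. None of the 12 thalamus genes was at 0 in all 30 KTZ libraries, and their summed level was 390 to 1770 CPM at PND22 against 224 to 1360 CPM at PND90. Of the 15 KTZ libraries at PND90, 8 lay below every PND22 library in the thalamus list (K3 replicates 1 and 2, K6 replicates 1, 2, 3 and 5, K12 replicates 1 and 2) and 7 lay inside the PND22 range. The level of the thalamus markers thus moved with age in the KTZ libraries, and the gene groups below are also given with that level as a covariate. Because the level differs between the ages, this covariate takes part of the age difference with it, and a call that is lost with it is not shown to be free of an age change. On the first principal component at PND90, K12 replicate 5 had the highest position (-0.33) and the highest thalamus level (5.08). K6 replicate 1 had the lowest position (-15.9) and the lowest level (2.02). At PND22, K12 replicate 5 had both the lowest position (-1.21) and the lowest level (3.33). The highest positions at PND22, in K3 replicates 4 and 5, came with levels of 4.67 and 4.27. The parts of age and thalamus level in this component were not tested.

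**Figure D1:**
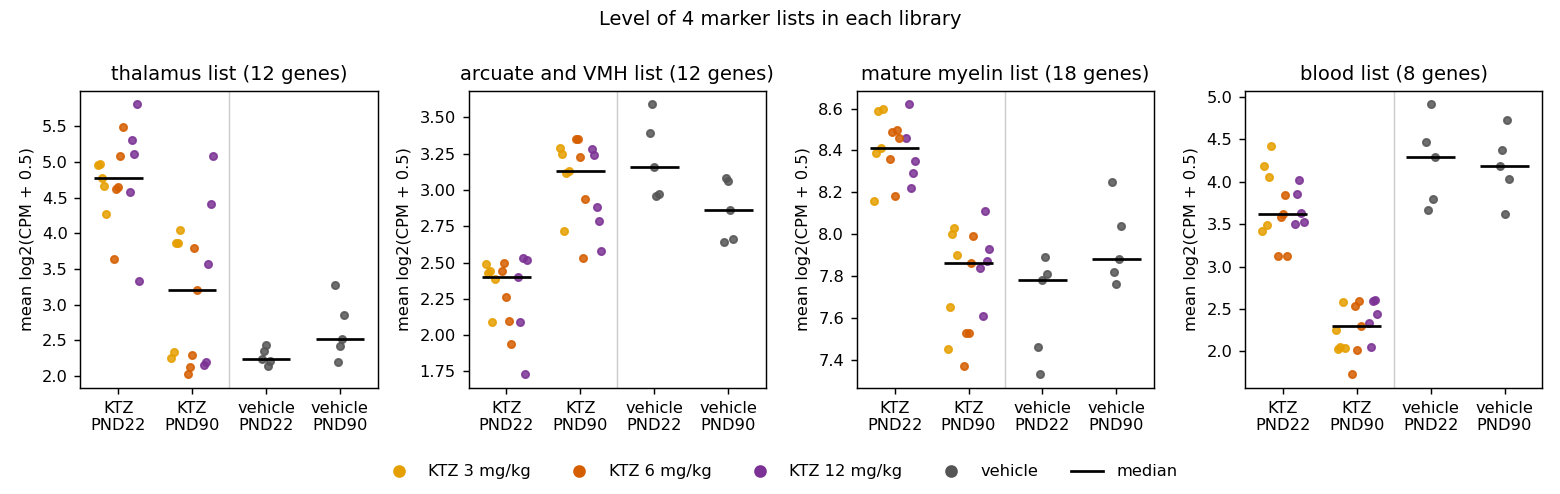
Mean log2(CPM + 0.5) of the thalamus, arcuate and ventromedial (VMH), mature myelin and blood marker lists in each library (points, coloured by dose), with the median of each group as a black bar. The KTZ libraries had a median thalamus level of 4.78 at PND22 and 3.21 at PND90, while the blood list of the KTZ libraries did not overlap between the ages (3.13 to 4.42 against 1.73 to 2.61).

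The first question was which genes differed between the ages in the KTZ rats. By the quasi-likelihood test of edgeR, with dose as a covariate, 4391 of 15190 genes (28.9%) passed an adjusted p-value of 0.05 (Benjamini-Hochberg over all genes tested). At PND90, 2015 genes were higher (13.3%) and 2376 were lower (15.6%). These shares are the background for the counts of each gene list below. A change of at least 2-fold was seen in 38 of the higher and 291 of the lower genes, and the median log2 fold change over all genes tested was -0.0019. In 25 genes (0.165%) all 15 PND90 libraries lay above all 15 PND22 libraries, and in 34 (0.224%) all lay below. With the thalamus level as a covariate, 728 genes (4.79%) were called, of which 679 were also called without it, 678 of them with the same sign. The share of 4.79% is the background for the list counts given with the covariate below. Without the 8 PND90 libraries low in thalamus markers, 1056 genes were called, and 1025 of these were among the 4391 with the same sign. That fit held 7 PND90 libraries against 15, so it had less power. It did not level the thalamus markers, whose list still had a median log2 fold change of -0.89. Without the 3 libraries with a high mitochondrial share, 5156 were called. What part tissue composition has in the 4391 calls was not tested.

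Every dose showed an age change. PND90 and PND22 differed in 2934 genes at K3 (19.3%), in 1048 at K6 (6.9%) and in 252 at K12 (1.66%), in a fit of the 6 dose and age groups. In a fit of each dose alone the counts were 346, 690 and 590, in another order. Neither set of counts ranks the doses, and the test of the difference itself called 0 genes (0%): no gene's age change differed between doses at an adjusted p-value under 0.05 by edgeR, while 765 had an unadjusted p-value under 0.05 and DESeq2 called 3. The 4 genes with the smallest p-values for a dose difference were Utp3, a nucleolar protein of ribosome assembly, Itga1, a collagen-binding integrin subunit, Pth1r, the receptor for parathyroid hormone, and Gadd45a, a stress-response gene, each with an adjusted p of 0.82. The log2 fold change of Itga1 was 0.95 at K3, -0.35 at K6 and -0.56 at K12.

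The counts per dose also rested on single libraries. For K3 the count was 4834 without PND22 replicate 1, 1087 without PND22 replicate 4, 1248 without PND22 replicate 5, 1474 without PND90 replicate 1 and 1680 without PND90 replicate 5. For K6 it was 679 and 636 without PND22 replicates 4 and 5, and 553 and 516 without PND90 replicates 1 and 2. For K12 it was 156 without PND22 replicate 4, and 140, 125 and 151 without PND90 replicates 1, 2 and 3. Without the 3 libraries with a high mitochondrial share the counts were 1501 (K3), 2615 (K6) and 715 (K12).

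In the vehicle rats, 0 of 15399 genes (0%) passed between PND22 and PND90 by edgeR in the fit of 8 groups, with 1018 at an unadjusted p-value under 0.05, 26 called by DESeq2 and 10 called when the vehicle libraries were fitted alone. The age change of the KTZ rats differed from that of the vehicle rats in 1177 genes (7.64%), with 437 higher (2.84%) and 740 lower (4.81%) in KTZ relative to vehicle. These shares are the background for the counts of list members that differed from vehicle below. Of the 4391 genes called in KTZ, 1088 were among these 1177. The 1177 became 727 without vehicle PND22 replicate 1, 744 without vehicle PND22 replicate 2, 601 without vehicle PND90 replicate 1 and 685 without vehicle PND90 replicate 5. With the thalamus level as a covariate 73 genes differed. The vehicle libraries of the 2 ages overlapped in the summed blood list, at 686 to 2240 CPM at PND22 and 713 to 1780 CPM at PND90. The KTZ libraries did not, at 512 to 2240 CPM and 116 to 359 CPM. The summed cell division list overlapped between the ages in both, at 79.3 to 105 CPM and 92.5 to 120 CPM in vehicle. In KTZ it was at 87.9 to 111 CPM and 76.7 to 107 CPM. The mean log2 level of the pituitary list did not overlap between the ages in vehicle, at 1.36 to 1.87 at PND22 and 0.6 to 1.33 at PND90. In KTZ the pituitary list overlapped, at 1.51 to 2 and 0.81 to 2.27. Whether the age labels of the vehicle libraries are right was not tested, and every comparison with vehicle rests on them.

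**Figure D2:**
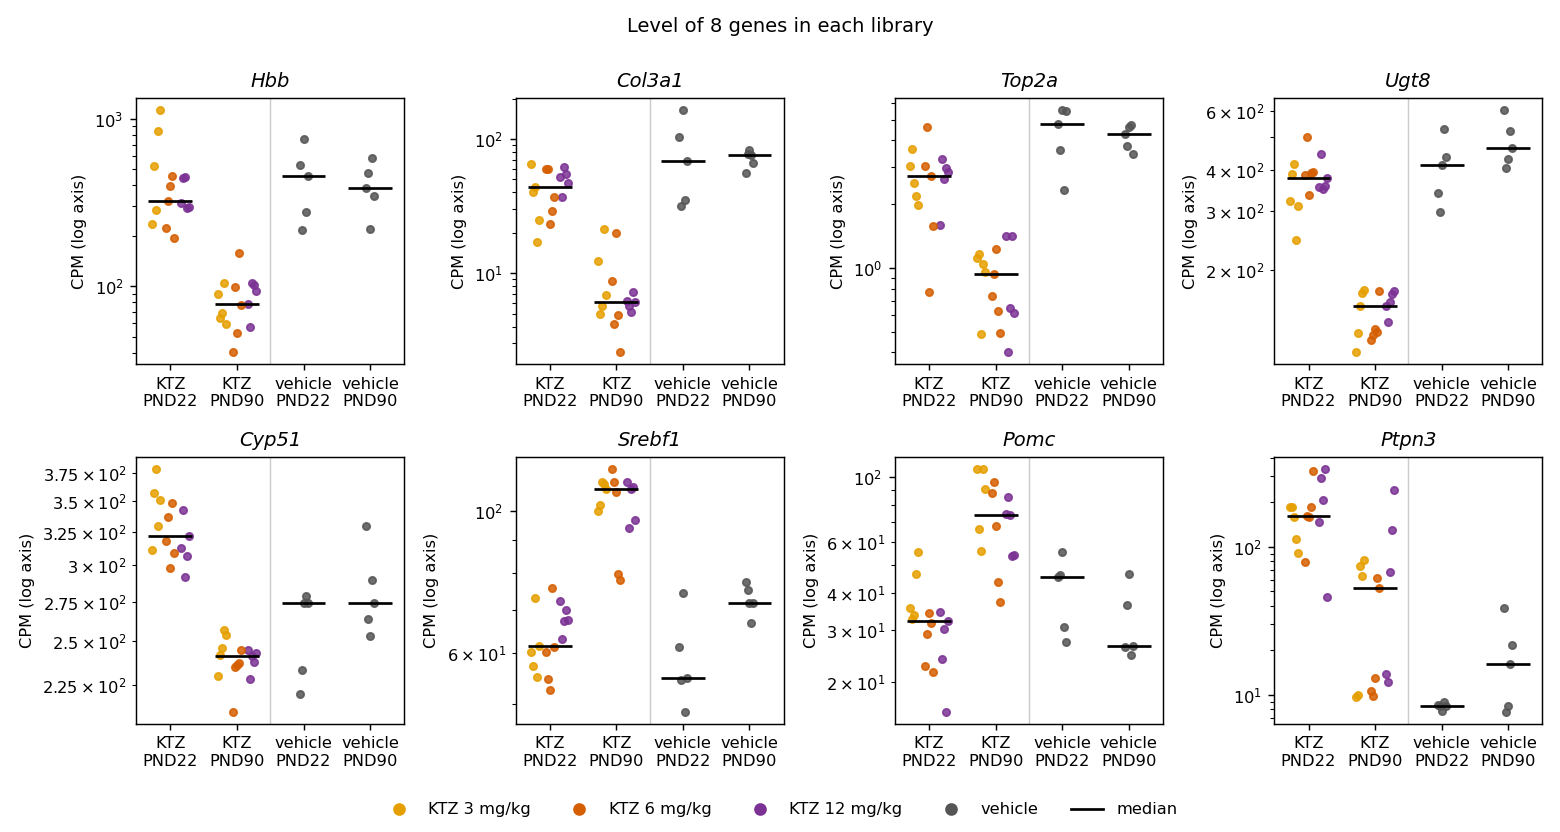
CPM on a log axis of 8 genes in each library (points, coloured by dose), in KTZ and vehicle rats at PND22 and PND90, with the group median as a black bar. Hbb, Ugt8, Cyp51 and Srebf1 did not overlap between the KTZ ages, which for Hbb, Ugt8 and Srebf1 the choice of leading genes required. Ptpn3, a gene of the thalamus list, spread from 9.76 to 240 CPM among the KTZ libraries at PND90.

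Among the genes called with 1 sign at each dose (155 genes), 43 had a named symbol, no overlap between the ages and a mean level of 1 or more on the log2 CPM scale, 14 higher and 29 lower at PND90. The 12 highest and 12 lowest of these by fold change are described here and in the groups below. The largest rise was in Moxd1, a monooxygenase-like protein that also marks sexually dimorphic preoptic neurons, from 1.97 to 4.13 CPM (median 3.06) at PND22 to 4.24 to 12.0 CPM (median 7.57) at PND90, a log2 fold change of 1.30 ± 0.13 (SE). In vehicle Moxd1 lay between 2.93 and 5.64 CPM at PND22 and between 2.19 and 3.20 CPM at PND90, and the difference between the age changes was 1.90 (adjusted p = 1.6e-05). Vehicle and KTZ thus moved in opposite directions in the fitted values, although the vehicle change did not pass.

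Srebf1, the transcription factor that drives fatty acid synthesis, rose in all doses, which the choice of these genes required. Its level was 52.6 to 75.9 CPM (median 61.6) at PND22 and 78.1 to 116 CPM (median 108) at PND90, a log2 fold change of 0.64 ± 0.05 (adjusted p = 6.5e-10). The vehicle log2 fold change was 0.33 ± 0.10 (adjusted p = 0.37), and the difference of 0.31 did not pass (adjusted p = 0.082). The Srebf1 change was as large with the thalamus covariate, at 0.62 (adjusted p = 6.8e-06). The other higher genes were Ces1d, a carboxylesterase (0.89 ± 0.13), Aadat, which makes kynurenic acid from kynurenine (0.87 ± 0.11), Jhy, a gene of ependymal cilia (0.87 ± 0.10), Stbd1, a glycogen-binding protein (0.85 ± 0.10), the heat shock factor Hsf4 (0.61 ± 0.07), the RNA-binding repressor Samd4a (0.60 ± 0.08), Fam189a2 (0.54 ± 0.06), the Rac activator Prex1 (0.53 ± 0.06), the Notch regulator Dtx1 (0.51 ± 0.06) and Tapbpl, which edits peptides on MHC class I (0.44 ± 0.05). Ces1d was the member of these 12 that was lost with the thalamus covariate (0.38, adjusted p = 0.068).

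**Figure D3:**
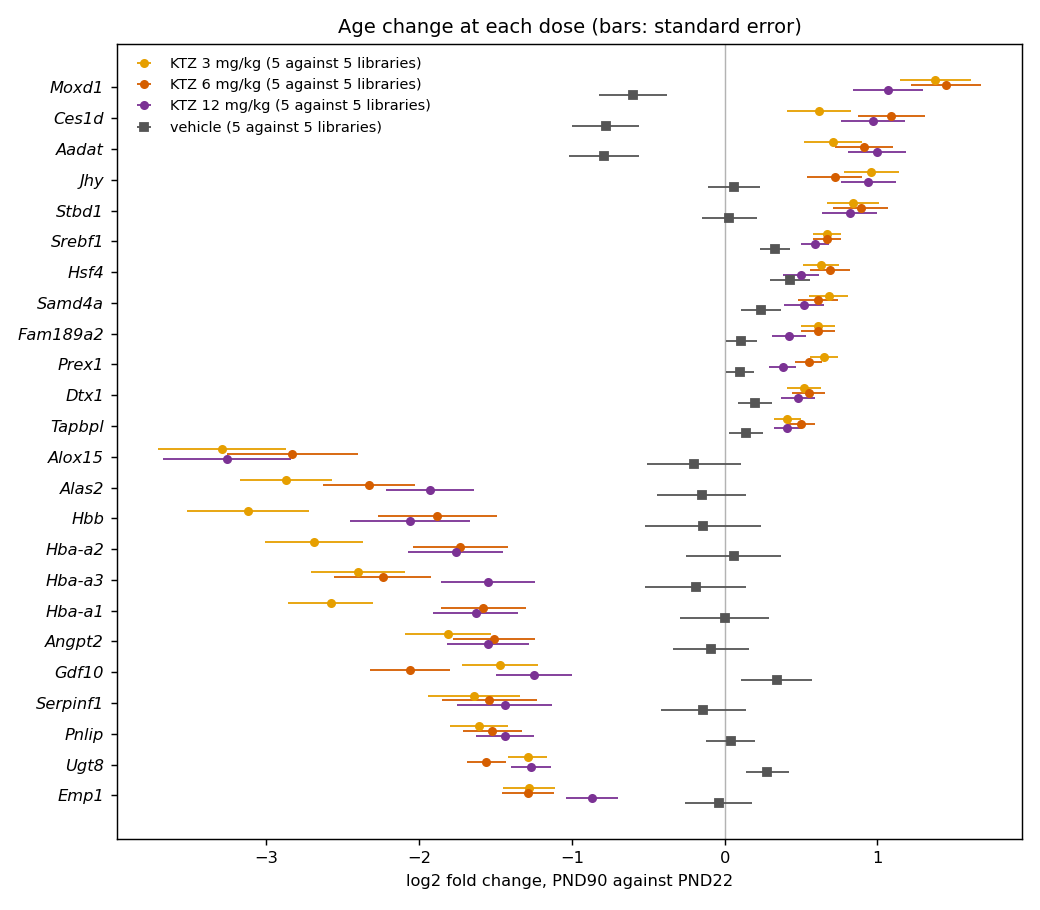
Log2 fold change of PND90 against PND22 for the 12 higher and 12 lower genes at each KTZ dose (circles, 5 against 5 libraries) and in vehicle (squares, 5 against 5 libraries), with standard errors as bars. The choice of genes puts every KTZ point on the side of its gene's overall change, and for Alox15 the 3 doses read -3.29, -2.83 and -3.26 against -0.20 in vehicle.

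Transcripts of red blood cells fell with age in the KTZ rats and not detectably in vehicle. All 6 tested genes of the blood list were lower at PND90, with a median log2 fold change of -2.20 against -0.0019 over all genes tested, and all 6 stayed lower with the thalamus covariate and differed from vehicle. Hbb, the beta globin chain, lay between 195 and 1130 CPM (median 324) at PND22 and between 40.4 and 158 CPM (median 78.7) at PND90, a log2 fold change of -2.35 ± 0.25 (adjusted p = 5.4e-08). In vehicle it lay between 215 and 756 CPM at PND22 and between 219 and 584 CPM at PND90, inside the range of the KTZ rats at PND22. Alas2, the rate-limiting enzyme of heme synthesis in erythroid cells, was at 3.83 to 15.0 CPM (median 7.77) and then at 0.815 to 2.63 CPM (median 1.48), a log2 fold change of -2.37 ± 0.18. Slc4a1, the anion exchanger of the red cell membrane, changed by -2.70 ± 0.35. The alpha globin genes Hba-a1 (-1.93 ± 0.18), Hba-a2 (-2.06 ± 0.19) and Hba-a3 (-2.06 ± 0.19) are near-identical copies, so how their reads were divided is uncertain. In these bulk samples fewer cells of a type cannot be told apart from less RNA per cell, here and in every group below.

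Alox15, a lipoxygenase abundant in reticulocytes and eosinophils, had the largest fall among the 24 leading genes. Its level was 2.90 to 13.0 CPM (median 5.80) at PND22 and 0.349 to 1.91 CPM (median 0.745) at PND90, a log2 fold change of -3.14 ± 0.24 (adjusted p = 1.5e-10). The vehicle rats had 66.8, 39.5, 86, 36.5 and 54.2 CPM at PND22 and 50, 43.6, 27.7, 85.5 and 36.3 CPM at PND90, above every KTZ library of either age. Pnlip, a pancreatic-type lipase, showed the same layout, with 13.6 to 23.1 CPM at PND22 and 4.81 to 8.99 CPM at PND90 in KTZ (-1.52 ± 0.11, adjusted p = 2.2e-11) and 40.4 to 52.6 CPM and 40.6 to 52.1 CPM in vehicle. In both genes the KTZ libraries were below vehicle at PND22 and further below it at PND90.

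Genes of collagen matrix and fibroblasts, which line the meninges and vessels, were lower at PND90. Of 17 tested members, 12 were lower and 0 higher, with a median log2 fold change of -0.93 against -0.11 in vehicle. Col3a1, a fibrillar collagen, fell from 17.2 to 65.3 CPM (median 44.1) to 2.58 to 21.3 CPM (median 6.13), a log2 fold change of -2.47 ± 0.25 (adjusted p = 3.4e-08), with 2 PND90 libraries reaching the PND22 range. In vehicle Col3a1 was at 31.7 to 165 CPM and 56.0 to 83.2 CPM. Col1a1 changed by -2.10 ± 0.29, Lox, the enzyme that crosslinks collagen, by -1.90 ± 0.24, Igfbp2, a binding protein of insulin-like growth factors, by -1.77 ± 0.23, Lum, a small leucine-rich proteoglycan, by -1.59 ± 0.15 and Col6a1 by -1.46 ± 0.20. Sparc (-0.05 ± 0.12), Col4a2 (-0.05) and Col5a2 (0.05) did not pass. The count was 10 of 17 with the thalamus covariate, and 8 of the 17 differed from vehicle.

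Some secreted factors and other leading genes were also lower. Igf2, the fetal insulin-like growth factor that meninges and choroid plexus make, was at 90.1 to 257 CPM (median 161) at PND22 and at 13.9 to 138 CPM (median 40.1) at PND90, a log2 fold change of -1.90 ± 0.28 (adjusted p = 8.1e-06). Cdkn1c, an imprinted inhibitor of the cell cycle, changed by -0.89 ± 0.09. Angpt2, which loosens vessels for remodelling, went from 5.02 to 10.2 CPM to 1.24 to 3.81 CPM without overlap (-1.62 ± 0.15, adjusted p = 8.3e-09), as did Gdf10, a growth factor of the BMP family (-1.58 ± 0.16), Serpinf1, a secreted inhibitor of vessel growth (-1.54 ± 0.17), and the membrane protein Emp1 (-1.15 ± 0.10). The endothelium and pericyte list had 1 member higher, 2 lower and 9 not called of 12 (median -0.09), against 28.9% called over all genes. With the thalamus covariate 0 of its members were called (median -0.07), against 4.79% over all genes.

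Genes of dividing cells fell between the ages. In the cell division list 11 of 16 were lower and 0 higher (median log2 fold change -0.43, vehicle 0.06), and 6 were called with the thalamus covariate, Top2a, Cdk1, Mki67 and Bub1 among them. Top2a, the topoisomerase that untangles replicated chromosomes, was at 0.769 to 4.64 CPM (median 2.71) at PND22 and at 0.401 to 1.41 CPM (median 0.932) at PND90, a log2 fold change of -1.61 ± 0.20 (adjusted p = 9.4e-07). The kinase Cdk1 changed by -1.40 ± 0.23, the proliferation marker Mki67 by -1.33 ± 0.18, the checkpoint kinase Bub1 by -0.95 ± 0.16, Birc5 by -0.63 ± 0.15 and the spindle protein Prc1 by -0.48 ± 0.11. The replication factors Pcna (-0.14 ± 0.06) and Mcm2 (0.07 ± 0.06) did not pass. In vehicle Mki67 stayed between 2.97 and 4.83 CPM at PND22 and between 3.67 and 5.32 CPM at PND90, against 1.01 to 4.15 CPM and 0.439 to 1.58 CPM in KTZ, and its age change differed between KTZ and vehicle by -1.58 (adjusted p = 0.0016).

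Myelin genes were lower in the adult KTZ rats than in those at weaning. At PND22 the mean log2 level of the mature myelin list was above every vehicle library in every KTZ library (8.16 to 8.62 against 7.33 to 7.89). At PND90 the ranges overlapped, at 7.37 to 8.11 in KTZ and 7.76 to 8.25 in vehicle. Of 18 tested members of the mature myelin list, 16 were lower and 0 higher, with a median log2 fold change of -0.73, while the vehicle median was 0.30, and 15 of the 18 differed from vehicle, each lower. Ugt8, the enzyme that makes the galactolipids of myelin, had the smallest p-value among the members: it lay between 245 and 500 CPM (median 377) at PND22 and between 113 and 174 CPM (median 155) at PND90, a log2 fold change of -1.37 ± 0.08 (adjusted p = 1.8e-13). The 5 vehicle libraries held 339, 299, 413, 528 and 437 CPM at PND22 and 605, 404, 431, 522 and 465 CPM at PND90 for Ugt8, and the difference between the age changes was -1.66 (adjusted p = 8.5e-08). The KTZ ages did not overlap in Ugt8.

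The other leading members were the tight junction protein Cldn11 (-1.08 ± 0.09), the raft protein Mal (-1.05 ± 0.12), the surface glycoprotein Mog (-0.95 ± 0.09) and Mobp (-0.90 ± 0.15). Mbp, which compacts the sheath, overlapped, with 7240 to 23300 CPM at PND22 and 3630 to 13600 CPM at PND90 (-0.80 ± 0.19, adjusted p = 0.0021). With the thalamus covariate 10 of the 18 were called, all lower, with a median of -0.53, and without the 8 libraries low in thalamus markers 12 were called.

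The precursor stages of the same lineage moved unevenly. Of 13 tested genes of the oligodendrocyte precursor list 6 were lower and 2 higher (median -0.28, vehicle 0.13). Enpp6, a marker of newly formed oligodendrocytes, was at 10.1 to 25.8 CPM (median 15.5) and then at 4.17 to 11.4 CPM (median 7.08), a log2 fold change of -1.25 ± 0.14. Bmp4 changed by -1.10 ± 0.28 and Gpr17, a receptor of cells about to mature, by -0.71 ± 0.11 (adjusted p = 1.2e-05). Gpr17 was at 14.2 to 48.2 CPM in KTZ at PND22 and 16.4 to 26.8 CPM at PND90, and at 97.1 to 118 CPM and 106 to 136 CPM in vehicle, so that KTZ and vehicle did not overlap at either age. Pdgfra, the growth factor receptor of dividing precursors, did not pass (-0.19 ± 0.09, adjusted p = 0.095). With the thalamus covariate 3 members were called, all lower.

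Cholesterol synthesis, which supplies both myelin and steroid hormones, was lower at several of its steps. Of 18 tested genes, 9 were lower and 1 higher, with a median of -0.15 against 0.11 in vehicle. The starts of 13 of the 18 genes matched the RefSeq promoter table (build GRCr8), and the 250 bases before the start are shown for 4 of the lower enzymes, because these fell together and because sterol genes commonly carry a CCAAT box beside the sterol element. Capitals mark CCAAT or its reverse complement ATTGG. Cyp51 (chr4:30991443-30991692, plus strand) held 0 of these motifs, Nsdhl (chrX:155817110-155817359, plus strand) held 5, Idi1 (chr17:66547525-66547774, minus strand) held 2 and Hmgcs1 (chr2:53382054-53382303, plus strand) held 2.
Cyp51: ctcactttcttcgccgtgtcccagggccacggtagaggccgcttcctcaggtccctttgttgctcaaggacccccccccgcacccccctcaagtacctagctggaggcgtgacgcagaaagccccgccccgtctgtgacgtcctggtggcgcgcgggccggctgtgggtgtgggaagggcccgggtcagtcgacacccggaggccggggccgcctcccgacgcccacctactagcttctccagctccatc
Nsdhl: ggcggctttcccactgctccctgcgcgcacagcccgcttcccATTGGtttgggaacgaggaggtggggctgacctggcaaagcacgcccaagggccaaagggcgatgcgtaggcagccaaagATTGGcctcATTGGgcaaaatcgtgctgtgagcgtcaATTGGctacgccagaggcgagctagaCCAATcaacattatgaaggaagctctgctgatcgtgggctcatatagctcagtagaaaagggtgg
Idi1: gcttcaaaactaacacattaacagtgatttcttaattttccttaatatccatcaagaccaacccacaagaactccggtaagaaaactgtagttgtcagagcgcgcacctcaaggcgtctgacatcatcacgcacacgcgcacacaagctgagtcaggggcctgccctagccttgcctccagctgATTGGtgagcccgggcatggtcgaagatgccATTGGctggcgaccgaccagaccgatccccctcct
Hmgcs1: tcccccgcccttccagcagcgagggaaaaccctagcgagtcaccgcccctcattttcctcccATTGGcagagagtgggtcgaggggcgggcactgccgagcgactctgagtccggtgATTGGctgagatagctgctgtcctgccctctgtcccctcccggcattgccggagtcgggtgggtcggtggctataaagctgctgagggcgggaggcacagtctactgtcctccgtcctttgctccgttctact

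CCAAT was found on either strand in 11 of the 13 matched promoters and in 5 of the 7 matched genes that were lower, against 34.02% of 33469 promoters of this length. The 9-letter sterol element TCACNCCAC was in 0 of the 13 and in 0.97% of all. Cyp51 and Dhcr7 were the matched genes with no CCAAT. No match says only that these letters are not in this window.

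Cyp51, the mammalian form of the enzyme that azole antifungals block in fungi, was at 292 to 378 CPM (median 322) at PND22 and at 211 to 257 CPM (median 241) at PND90 in the KTZ rats, a log2 fold change of -0.50 ± 0.04 (adjusted p = 1.2e-09) without overlap. The 5 vehicle libraries held 220, 233, 274, 279 and 274 CPM at PND22 and 330, 264, 253, 290 and 274 CPM at PND90, so that at PND22 every KTZ library was above every vehicle library, and the difference between the age changes was -0.67 (adjusted p = 2.9e-05). Idi1, which isomerises the isoprene unit, was at 67.2 to 92.2 CPM (median 75.1) and then at 44.7 to 63.5 CPM (median 57.6), a log2 fold change of -0.52 ± 0.06. Nsdhl, which acts after Cyp51, was at 56.4 to 70.8 CPM (median 62.8) and then at 41.2 to 54.4 CPM (median 49.2), a log2 fold change of -0.40 ± 0.04. Cyp51, Idi1 and Nsdhl were also called with the thalamus covariate, at -0.46, -0.45 and -0.33.

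Hmgcs1, at the entry of the pathway, changed by -0.34 ± 0.05 (adjusted p = 6.7e-06), the epoxidase Sqle by -0.26 ± 0.05 and the reductase Dhcr7, the last step of one branch, by -0.23 ± 0.06. Srebf2, the factor that controls the pathway, was higher (0.21 ± 0.07, adjusted p = 0.021). With the thalamus covariate 5 of the 18 were lower, and 7 of the 18 differed from vehicle, each lower.

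**Figure D4:**
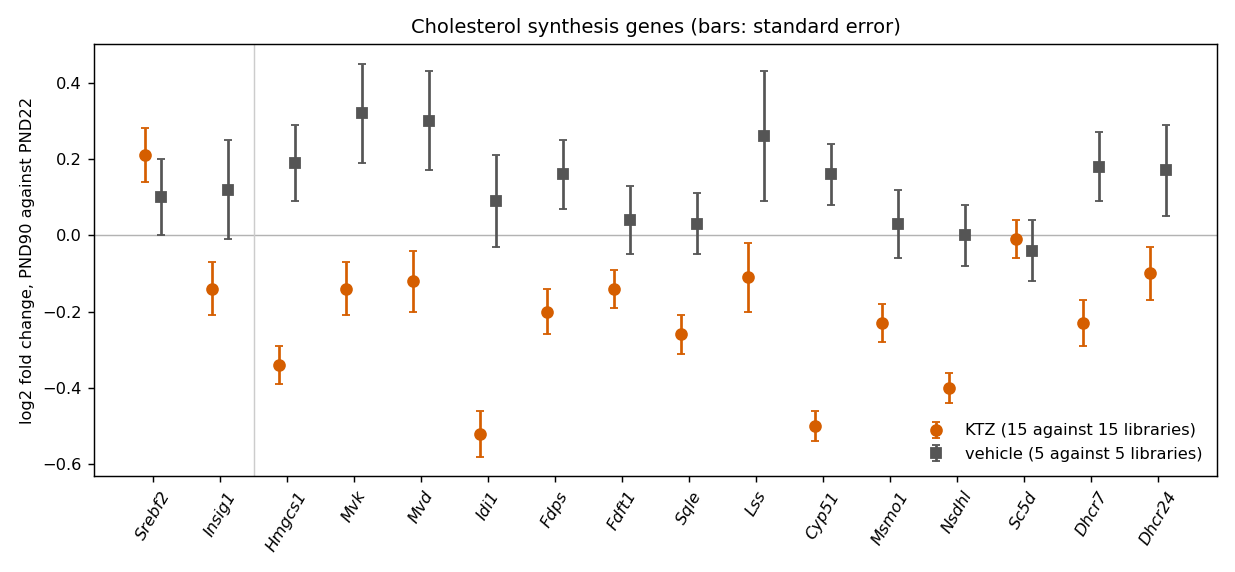
Log2 fold change of PND90 against PND22 with standard errors for 16 of the 18 genes of cholesterol synthesis in KTZ (circles) and vehicle (squares), regulators to the left of the line and enzymes in pathway order to the right. Cyp51, Idi1 and Nsdhl lie at -0.50, -0.52 and -0.40 in KTZ and at 0.16, 0.09 and 0.00 in vehicle.

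Of the genes that make and clear steroids, 4 of 14 were lower and 2 higher at PND90, against 15.6% lower and 13.3% higher over all genes. Akr1c14, which makes neurosteroids such as allopregnanolone, was at 3.02 to 6.15 CPM (median 4.99) and then at 0.869 to 4.87 CPM (median 1.48), a log2 fold change of -1.44 ± 0.18 (adjusted p = 1.1e-06), and it was called with the thalamus covariate (-1.25, adjusted p = 0.0032). Cyp46a1, which clears cholesterol from neurons, changed by -0.50 ± 0.11 and Srd5a1, the reductase that precedes Akr1c14, by -0.41 ± 0.07. The sulfatase gene Sts (0.47 ± 0.12) and Cyp7b1 (0.34 ± 0.06) were higher. With the thalamus covariate 1 member was lower and 0 higher: Cyp46a1 turned sign (0.04, adjusted p = 0.85), and Srd5a1 (-0.20, adjusted p = 0.17), Sts (0.43, adjusted p = 0.14) and Cyp7b1 (0.20, adjusted p = 0.16) were not called. Cyp19a1, the aromatase that makes estradiol, did not pass (-0.09 ± 0.21, adjusted p = 0.78), at 0.538 to 2.37 CPM and 0.494 to 1.86 CPM.

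Receptors for steroids and related ligands were higher at PND90, with 10 of 19 higher and 0 lower (median 0.34, vehicle -0.04). Esr1, the estrogen receptor that conveys feedback in the MBH, was at 3.40 to 13.8 CPM (median 7.98) at PND22 and at 8.31 to 16.6 CPM (median 13.6) at PND90 in KTZ, a log2 fold change of 0.63 ± 0.14 (adjusted p = 0.0013). In vehicle it was at 15.3 to 20 CPM and 8.83 to 12.7 CPM, and the difference of 1.23 passed (adjusted p = 0.0025). At PND22 every KTZ library was thus below every vehicle library in Esr1, and at PND90 the ranges overlapped. Nr5a1, which defines the ventromedial nucleus, changed by 0.70 ± 0.16, the retinoid receptors Rxrg and Rxra by 0.61 ± 0.08 and 0.54 ± 0.08, and Esr2 by 0.45 ± 0.16. Pparg, a nuclear receptor of lipid metabolism, did not pass at 0.0536 to 0.557 CPM and 0.123 to 0.774 CPM (0.49 ± 0.25, adjusted p = 0.14).

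With the thalamus covariate, Rxra (0.53, adjusted p = 0.0041) and Rxrg (0.29, adjusted p = 0.035) were the receptors called, and Esr1 was at 0.26 (adjusted p = 0.46). Without the 8 libraries low in thalamus markers 3 receptors were called, and the median of the list was 0.34, as with all 30.

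In the network that paces GnRH, 7 of 14 tested genes were higher and 1 lower (median 0.41, vehicle -0.05). Kiss1, which encodes kisspeptin, was at 0.414 to 3.50 CPM (median 1.23) at PND22 and at 0.974 to 6.03 CPM (median 3.46) at PND90, a log2 fold change of 1.37 ± 0.25 (adjusted p = 0.00018). The 5 vehicle libraries held 2.61, 2.74, 1.3, 1.25 and 1.91 CPM at PND22 and 1.47, 1.78, 0.993, 1.95 and 0.711 CPM at PND90, and the difference of 1.86 passed (adjusted p = 0.015). The KTZ ages overlapped, with low libraries at both. The Kiss1 call was lost with the thalamus covariate (0.60, adjusted p = 0.32) and without the 8 libraries low in thalamus markers (adjusted p = 0.066).

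The kisspeptin receptor gene Kiss1r rose by 0.61 ± 0.10 (adjusted p = 3.7e-05), and it was the member of this network called with the thalamus covariate (0.64, adjusted p = 0.0082). Tac3, which encodes neurokinin B, changed by 0.49 ± 0.14 and Pdyn, which encodes dynorphin, by 0.50 ± 0.09. Npvf, which encodes the inhibitory RFRP peptides, changed by 0.66 ± 0.16 and their receptor gene Npffr1 by 0.59 ± 0.17. Gnrh1 did not pass (-0.34 ± 0.24, adjusted p = 0.29), at 0.680 to 3.29 CPM and 0.408 to 2.79 CPM.

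Of the list for the timing of puberty, which shares 5 of its tested genes with the GnRH network, 10 of 19 were higher and 3 lower (median 0.40). Mkrn3, an imprinted brake on puberty, was at 1.10 to 2.58 CPM (median 1.6) and then at 1.02 to 1.69 CPM (median 1.35), a log2 fold change of -0.31 ± 0.11 (adjusted p = 0.039), and at 2.31 to 3.62 CPM and 2.49 to 4.24 CPM in vehicle. Igsf10, which guides migrating GnRH neurons, changed by 0.43 ± 0.13 (adjusted p = 0.016). The transcription factors Fezf1 (0.87 ± 0.13) and Nkx2-1 (0.76 ± 0.13) rose, while Sema7a (-0.66 ± 0.13) and Nsmf (-0.92 ± 0.22), both linked to the wiring of GnRH neurons, fell. In this list 1 member, Kiss1r, was called with the thalamus covariate, and Mkrn3 (-0.43, adjusted p = 0.13) and Igsf10 (0.13, adjusted p = 0.73) were not.

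Genes of the arcuate and ventromedial nuclei, in a list that also holds the tanycyte factor Rax, were higher at PND90, with 11 of 12 higher and 0 lower (median 0.73, vehicle -0.37), and 11 differed from vehicle. At PND22 the mean log2 level of the list was lower in every KTZ library than in any vehicle library (1.73 to 2.53 against 2.96 to 3.59). At PND90 the ranges overlapped (2.53 to 3.35 against 2.64 to 3.08). Pomc, the precursor of the satiety peptide alpha-MSH, was at 15.8 to 55.6 CPM (median 32.1) at PND22 and at 37.5 to 106 CPM (median 74.1) at PND90, a log2 fold change of 1.15 ± 0.14 (adjusted p = 6.9e-07). In vehicle it was at 27.3 to 55.4 CPM and 24.6 to 46.6 CPM. Rax changed by 1.58 ± 0.23, and Tbx3 by 0.75 ± 0.14, while Agrp, the hunger peptide, did not pass (0.16 ± 0.17, adjusted p = 0.48). The thalamus list moved the other way, with 10 of 12 lower and a median of -1.67. With the thalamus level as a covariate 2 arcuate genes were called, Rax (1.30, adjusted p = 0.012) and Pomc (0.76, adjusted p = 0.0075).

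Among 24 tested hypothalamic neuropeptides and their partners, 10 were higher and 5 lower (median 0.14). Over all genes 13.3% were higher and 15.6% lower. With the thalamus covariate Pomc was called higher and Nmb lower. Hcrt, which encodes orexin, the wakefulness peptide, rose from 18.6 to 40.8 CPM to 30.6 to 70.5 CPM (0.76 ± 0.12), and Ghrh, which drives growth hormone, changed by 0.71 ± 0.17. Vip (-1.49 ± 0.33), Cck (-1.46 ± 0.32) and Nmu (-1.22 ± 0.43) fell, and under the thalamus covariate they were at -0.56, -0.23 and -1.93, none called. Oxt, which encodes oxytocin, did not pass (0.12 ± 0.29, adjusted p = 0.79) with 14.6 to 201 CPM and 20.9 to 240 CPM, and neither did Avp (-0.24 ± 0.19, adjusted p = 0.36). Oxt in vehicle went from 2.28 to 13.6 CPM to 9.46 to 96.7 CPM, and the difference of -2.26 passed (adjusted p = 0.028). Npw was at most 0.253 CPM at PND22 and 0.477 CPM at PND90 in KTZ, too low to be tested, against 2.08 to 4.19 CPM and 2.25 to 4.98 CPM in vehicle, and Npy is listed at 0 in all 40 libraries.

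Astrocyte genes were higher, with 8 of 13 higher and 0 lower (median 0.27, vehicle 0.02). Fgfr3, a growth factor receptor of astrocytes, rose without overlap from 85.3 to 141 CPM (median 115) to 141 to 239 CPM (median 174), a log2 fold change of 0.55 ± 0.07 (adjusted p = 8.3e-07), and was the member called with the thalamus covariate (0.49, adjusted p = 0.0017). The glutamate transporters Slc1a2 and Slc1a3 changed by 0.60 ± 0.15 and 0.32 ± 0.07 and Gfap, the intermediate filament, by 0.45 ± 0.10. Immediate early genes, which neurons switch on within minutes of activity, were higher in 6 of 12 and lower in 0, led by Fosb (0.89 ± 0.30), Nr4a1 (0.78 ± 0.29), Btg2 (0.70 ± 0.21) and Junb (0.68 ± 0.19), while Fos did not pass (0.55 ± 0.24, adjusted p = 0.091). Fosb was the member called with the thalamus covariate (1.46, adjusted p = 0.023), although the median of the list was then 0.80 against 0.65 without it, with Nr4a1 at 1.16, Btg2 at 0.79 and Junb at 0.82. None of the 12 differed from vehicle in its age change, against 7.64% of all genes, so this count is near the background.

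In the DNA methylation and Polycomb list, whose genes silence chromatin, 2 of 20 were higher, 2 lower and 16 not called, against 28.9% called over all genes. Ezh2, the methyltransferase of Polycomb in dividing cells, was at 4.52 to 6.97 CPM (median 6.23) and then at 3.31 to 6.34 CPM (median 4.53), a log2 fold change of -0.42 ± 0.09 (adjusted p = 0.00056). Cbx7, a reader of the Polycomb mark, was at 51.6 to 77.4 CPM (median 68.0) and then at 73.6 to 95.9 CPM (median 83.5), a log2 fold change of 0.29 ± 0.04 (adjusted p = 4.8e-06). Both calls held with the thalamus covariate (-0.60, adjusted p = 0.002, and 0.29, adjusted p = 0.0023). Ezh1 (0.14 ± 0.07), the form of non-dividing cells, and the DNA methyltransferase Dnmt3a (0.14 ± 0.16) did not pass.

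Receptor and channel genes moved in both directions. In the GABA list 6 of 21 were higher and 3 lower, in the glutamate list 2 of 27 were higher and 5 lower, and in the potassium and sodium channel list 1 of 19 was higher and 7 lower, and with the thalamus covariate no member of these 3 lists was called. Over all genes tested, without the covariate, 28.9% were called, 13.3% higher and 15.6% lower. With the covariate the share over all genes was 4.79%, so a count of 0 in these lists is near that share. Gabrd, a subunit of extrasynaptic receptors that thalamic relay cells use, was at 7.56 to 82.8 CPM (median 45.2) and then at 1.07 to 50.6 CPM (median 7.85), a log2 fold change of -2.13 ± 0.47, and was at -0.20 with the covariate (adjusted p = 0.72). Grm3 (-0.19 ± 0.07, adjusted p = 0.043) and Gabre (0.34 ± 0.13, adjusted p = 0.046) passed narrowly, and with the covariate the sign of each turned, to 0.01 and -0.08.

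**Figure D5:**
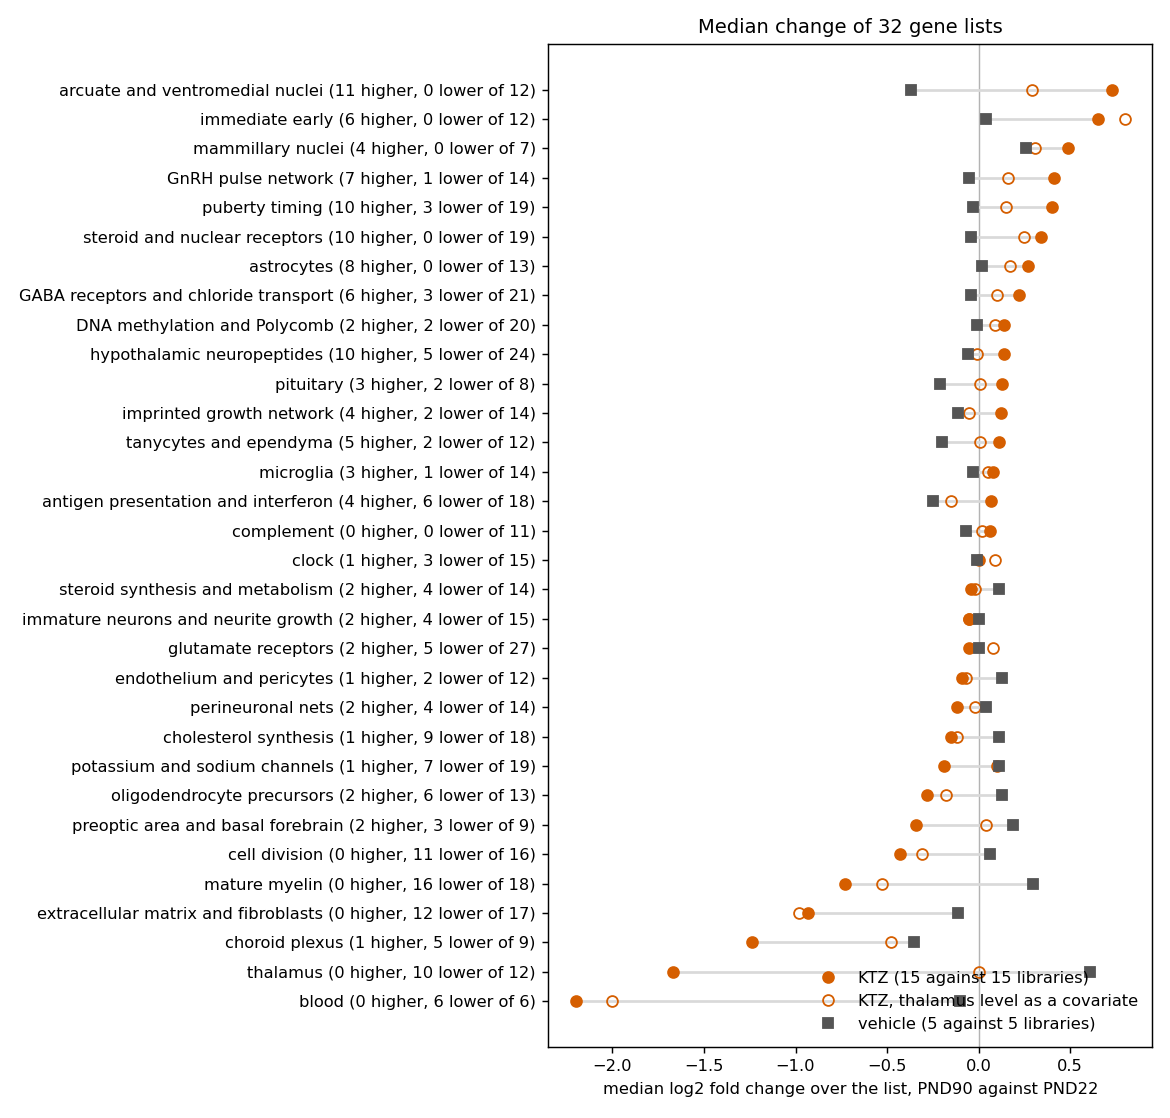
Median log2 fold change of PND90 against PND22 for 32 gene lists in KTZ (filled circles), in KTZ with the thalamus level as a covariate (open circles) and in vehicle (squares), with the numbers of members higher and lower in KTZ. Blood, matrix and myelin lists stay below 0 with the covariate (-2, -0.98 and -0.53), the thalamus list goes to 0 by construction, and the arcuate list falls from 0.73 to 0.29.

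Among the genes whose age change differed most between KTZ and vehicle, those higher in KTZ included Stra6, the retinol transporter, and Lrat, which stores retinol as esters. Stra6 was at 5.39 to 14.3 CPM (median 11.2) and then at 8.99 to 41.3 CPM (median 23.3) in KTZ, and at 14.2 to 20.9 CPM and 6.38 to 12.8 CPM in vehicle, a difference of 1.99 (adjusted p = 1.9e-05). Lrat differed by 1.85 (adjusted p = 0.00037), Fndc3c1 by 2.26 (adjusted p = 0.00089) and S100g, a calcium-binding protein, by 2.68 (adjusted p = 0.043), although S100g had no called change in KTZ (0.42 ± 0.33). Ces1d (1.67) and Aadat (1.66) are described above.

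Among the 8 most lower in KTZ, 4 were genes of the thalamus list, Gbx2 (-3.84), the vesicular glutamate transporter Slc17a7 (-3.22), Wnt9b (-3.17) and Ptpn3 (-3), and another was Shox2 (-6.11), a factor of thalamic neurons. The thalamus list holds 12 of the 15399 genes tested. It was chosen with earlier results of these data known, so this count describes the genes and is not independent support. The value of Shox2 depends on vehicle levels of 0 to 0.217 CPM at PND22, within the few reads that a count of 0 allows, so its size is not a measured fold. Slc6a3, the dopamine transporter, was at 28.8 to 160 CPM (median 63.3) and then at 5.24 to 68.4 CPM (median 11.6) in KTZ, and at 4.05 to 19.6 CPM and 5.41 to 133 CPM in vehicle, a difference of -4.87 (adjusted p = 0.00023). Slc6a3 was called with the thalamus covariate (-2.10, adjusted p = 0.014). Il12rb2 differed by -3.93.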

How the data were processed

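Messenger RNA of the MBH was sequenced from 1 rat per library. Per the study's methods, reads were mapped by STAR (Rnor_6.0) and assigned to Ensembl genes by featureCounts. The authors deposited raw counts, whole numbers without normalization, of 32883 genes in 105 MBH libraries, with 105 POA libraries in a table not used here. Strand setting and the treatment of reads with several positions are not given in the sources used here, so counts of near-identical, overlapping and antisense genes are uncertain.

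From these counts, CPM, TMM factors and quasi-likelihood tests (two-sided) were computed with edgeR 4.0.16 in R 4.3.3, after filterByExpr at a minimum count of 10, which left 15190 genes (15399 with vehicle). Genes were called at a Benjamini-Hochberg adjusted p-value under 0.05 over all genes tested, without a fold threshold, as in the study. Fits held the 30 KTZ libraries with dose as a factor, the 6 dose and age groups, or these with vehicle (8 groups). Replicate numbers do not mark the same rat at both ages, so no block was used. Principal components were taken after variance stabilization in DESeq2 1.42.0. A count of 0 allows up to 3 reads, and such limits cover counting error alone. No libraries were near-identical. The scripts were tested on simulated data.

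Named genes were the 12 with the largest rise and the 12 with the largest fall among genes called with 1 sign at each dose without overlap, with a mean of 1 or more in log2 CPM, up to 6 called members per gene list, the 8 largest differences from vehicle each way, the 4 smallest p-values for dose, and genes the paper names for the MBH. Results for some genes are not reported here. Other names were chosen after their values were seen. Members and all 32 lists were chosen with earlier results of these data known. Symbols come from the table. Gnrh1 stands on 2 gene rows, of which 1 was tested. Alternatives were DESeq2 (1.42.0), RLE factors, no filter, a replicate block, dose as a number, no dose term, a fit of all 14 groups, separate fits, and leaving out each library. The thalamus covariate and the 2 sets of libraries left out were chosen after seeing the data.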

Additional observations from a re-analysis of the deposited data

Results flagged for a closer look

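The age change differed between KTZ and vehicle in 1177 genes by the quasi-likelihood test of edgeR on the difference itself, with Benjamini-Hochberg adjustment. The largest differences in log2 fold change toward higher levels at PND90 in KTZ were 2.68 for S100g, 2.26 for Fndc3c1, 1.99 for Stra6, 1.90 for Moxd1, 1.86 for Kiss1, 1.85 for Lrat, 1.67 for Ces1d and 1.66 for Aadat. Toward lower levels, those reported here were -6.11 for Shox2, -4.87 for Slc6a3, -3.93 for Il12rb2, -3.84 for Gbx2, -3.22 for Slc17a7, -3.17 for Wnt9b and -3.0 for Ptpn3. In Ptpn3, for example, vehicle held 7.80 to 8.99 CPM at PND22 and 7.73 to 38.5 CPM at PND90, and the KTZ libraries 45.9 to 333 CPM and 9.76 to 240 CPM.

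Single libraries lay far from the other 4 of their group in 6 of 64 groups of library measures and in 4 of 108 groups of vehicle gene levels. Chance flags about 1 in 20 such groups. K3 PND90 replicate 4 held 22999078 reads against 16091865 to 17185228 in the rest of its group, and K6 PND90 replicate 4 had 14.21% mitochondrial reads against 7.43% to 8.49%. The mean log2 level of the arcuate list was 2.09 in K3 PND22 replicate 4 (others 2.39 to 2.49), and that of the pituitary list was 1.51 in K6 PND22 replicate 5 (others 1.87 to 2.0).

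The choroid plexus list, genes of the ventricular tissue that makes cerebrospinal fluid, was at 2.57 in K12 PND22 replicate 4 (others 0.53 to 1.04) and at 3.02 in K6 PND22 replicate 4 (others 0.61 to 1.04). Ttr, its most abundant gene, was at 204 and 390 CPM in these 2 libraries and at 8.09 CPM or less in the other KTZ libraries of PND22. Among vehicle libraries, Dtx1 was at 30.1 CPM in PND90 replicate 4 (others 38.9 to 40.6), Mkrn3 at 2.31 CPM in PND22 replicate 5 (others 3.3 to 3.62), Grm3 at 37.5 CPM in PND90 replicate 1 (others 27.4 to 29.3) and Npw at 4.98 CPM in PND90 replicate 2 (others 2.25 to 2.99).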

How the results depend on the processing

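The count of genes called in KTZ moved most in the fits that involve the thalamus markers: the 4391 (2015 higher, 2376 lower) became 728 (303 and 425) with the thalamus level as a covariate and 1056 (485 and 571) without the 8 PND90 libraries low in thalamus markers, while DESeq2 (4784), RLE factors (4383), no filter (4034), dose as a number (4310), no dose term (4125) and a fit of all 14 groups (4938) stayed within 1.5 times of it. Some alternatives used fewer samples, and otherwise the cause of a moved value was not tested. Per dose, separate fits of 10 libraries gave 346 (K3), 690 (K6) and 590 (K12), DESeq2 gave 486 for K12, with 32.5% of calls higher at PND90 against 22.2% in edgeR, and leaving out the 3 libraries with a high mitochondrial share gave 1501, 2615 and 715, with 41.4% higher at K12. Dose differences were 3 with DESeq2. Differences from vehicle were 767 (289 higher, 478 lower) in a fit of all 14 groups, 73 (14 and 59) with the thalamus covariate, of which 19.2% were higher in KTZ against 37.1% of the 1177, and 2156 (910 and 1246) without those 3 libraries. In vehicle, DESeq2 called 26, no filter 3, a separate fit 10, the thalamus covariate 1 and the fit without the 3 libraries 1. The first component held 30.9% on log2 CPM and 39.9% over all genes.

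Leaving out 1 library at a time gave 3928 to 5093 calls in KTZ (1759 to 2472 higher, 2113 to 2621 lower), 1087 to 4834 at K3, 516 to 1257 at K6, 125 to 334 at K12, 0 dose differences, 601 to 1538 differences from vehicle (208 to 616 higher, 393 to 943 lower), 0 to 4 in vehicle and a first component of 36.6% to 41.6%.

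Of the 182 named genes called in KTZ, 75 were called with the same sign with the thalamus covariate, and 13 turned sign: Grm3 (0.01), Gabre (-0.08), Gabbr2 (0.10), Hlf (0.10), Grm4 (0.13), Slc17a6 (0.04), Igfbpl1 (-0.02), Kcnc2 (0.05), Hcn4 (0.06), Zic1 (0.07), Cyp46a1 (0.04), Wnt9b (0.05) and Ptpn3 (0.02), none called. The covariate is the mean level of the thalamus list. Members of that list are among the 182, Wnt9b and Ptpn3 included, and their changes go toward 0 by construction. The uncalled Oxt ran from -0.07 to 0.21 over the fits that left out 1 library, and was below 0 without K6 PND90 replicate 1 (-0.07) and without K12 PND90 replicate 3 (-0.05).

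Replicate numbers shared by the ages do not pair the rats: of 15 same-numbered pairs, 5 had a correlation of their deviations above 0.1 (median 0.09). With the replicate block, 4548 genes were called in KTZ (3186, 1103 and 307 per dose), 0 for dose, 1335 against vehicle and 0 in vehicle. The replicate block left 179 of the 182 named genes called. Depth limits genes near 1 CPM, such as Barhl1 and Top2a.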

Other observations

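In the microglia list 3 of 14 tested members were higher at PND90 in KTZ and 1 lower, against 28.9% called over all genes. The higher members were Cx3cr1, the fractalkine receptor (0.31 ± 0.07), Selplg (0.31 ± 0.06) and Csf1r (0.22 ± 0.05). The lower member, Cd68, had the largest change of the called members (-0.58), and the list median was 0.08. In the complement list 0 of 11 were called by edgeR, with C2, C3 and Serping1 (3 of 11) at an unadjusted p under 0.05, while DESeq2 called 1. Values are log2 fold changes ± SE from the edgeR fit unless another unit is given. Genes that present antigen on MHC class II were lower, RT1-Ba by a log2 fold change of -1.18 ± 0.23 and Cd74 by -0.89 ± 0.21, at vehicle values of -1.22 ± 0.40 and -0.94 ± 0.39 that did not pass, and the differences from vehicle were 0.03 and 0.05. In the same list Ifit3, an interferon-induced gene, was higher (0.95 ± 0.23). In all, 4 of its 18 members were higher and 6 lower, and with the thalamus covariate 0 were higher and 3 lower. With that covariate 1 microglia gene was higher and 0 lower, and 1 complement gene, Serping1 (-0.56), was lower.

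The mammillary list had 4 of 7 members higher and 0 lower, with Barhl1 at 1.01 ± 0.18 and Foxb1 at 0.65 ± 0.11. In the fit with the covariate Barhl1 was the member called (0.88, adjusted p = 0.034), and Foxb1 was at 0.31 (adjusted p = 0.23). Of the perineuronal net list, which covers the matrix around fast-spiking neurons, 4 of 14 were lower and 2 higher, with the protease Adamts4 at -0.67 ± 0.09 and Hapln1 at -0.46 ± 0.08, and the core protein Acan was not called (-0.07 ± 0.15). Tanycyte and ependymal genes were higher in 5 of 12 and lower in 2, with Crym at 1.07 ± 0.14 and Dio2, which activates thyroid hormone, at -0.63 ± 0.15. The imprinted list had 4 of 14 higher and 2 lower. Clock genes were higher in 1 of 15 and lower in 3, genes of immature neurons higher in 2 of 15 and lower in 4, and preoptic and basal forebrain genes higher in 2 of 9 and lower in 3. The share called over all genes was 28.9%, with 13.3% higher and 15.6% lower, and it was 4.79% with the covariate. In the fit with the covariate 3 perineuronal net genes were lower and 0 higher, 2 tanycyte and ependymal genes were higher and 1 lower, 2 imprinted genes were lower and 0 higher, 1 clock gene was higher and 0 lower, 2 genes of immature neurons were lower and 0 higher, and 1 preoptic gene was higher and 0 lower, with the preoptic median at 0.04 against -0.34.

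Of 8 tested genes of the pituitary list 3 were higher and 2 lower, against 13.3% and 15.6% over all genes. With the thalamus covariate 2 were higher and 1 lower. Tshb, which encodes the beta chain of thyrotropin, was at 25.2 to 108 CPM at PND22 and 0.562 to 38.8 CPM at PND90 (-2.10 ± 0.40, and -2.21 with the covariate, adjusted p = 0.021), and Cga, the shared alpha chain, changed by -1.36 ± 0.48 (-1.79, adjusted p = 0.14). Prl and Gh1 were near 0 in most libraries and high in a few at PND90. Prl, which encodes prolactin, was at 79.1 CPM in K6 replicate 5, 37.0 in K6 replicate 4, 19.6 in K3 replicate 4 and 14.2 in K12 replicate 4, and at most 0.754 CPM at PND22. Gh1, growth hormone, was highest in the same 4 libraries, at 30.1, 9.68, 6.48 and 3.18 CPM. The choroid plexus list had 5 of 9 tested genes lower and 1 higher (2 lower and 0 higher with the covariate), and the 2 PND22 libraries with high Ttr hold its highest levels. The part of these traces in other results was not tested.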
